A study of Danio rerio with 18 samples.

Results

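Integrated stress response genes are described here as 8 zebrafish genes: chac1, ddit3, ddit4, atf4a, atf4b, asns, trib3 and sesn2. They were picked by symbol from the 25281 rows of the deposited table, of which 25266 name a gene. By exact symbol 7 of the 8 were present. The eighth, atf4b, has no row of its own name and was read from the single numbered row atf4b_1, so its identity rests on that name alone. All 8 passed the filter on low counts that left 22038 genes to be tested. The study took 18 single larvae of the AB wild-type strain, which had been split at 6 days post fertilization (dpf) into a resilient and a susceptible archetype. Whole larvae were collected at 7 dpf, some undisturbed (basal) and others 30 min after a 5 min stress. There were 4 basal and 5 stressed larvae of the resilient archetype, and likewise 4 and 5 of the susceptible one, all separate AB animals with no allele or drug named. The labels state neither how resilience was scored nor what the stress was, and they name no clutch or day.

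The integrated stress response begins when kinases that sense misfolded protein, amino acid shortage, heme shortage or viral RNA phosphorylate the initiation factor eIF2. General translation then slows while the mRNA of the transcription factor Atf4 is translated more, so atf4 mRNA need not move with its protein. In mammals Atf4 and its partner Chop, encoded by ddit3, switch on genes for amino acid supply, for brakes on the growth kinase mTORC1, for glutathione breakdown by Chac1 and for cell death. Ppp1r15a reverses the eIF2 mark. Which values singled chac1 out is not recorded. They are taken to be its counts in resilient stressed larvae against resilient basal and susceptible stressed larvae. For those comparisons, and for the difference of responses built from them, its values are a description and no p is given. Its remaining comparisons share the susceptible stressed or resilient basal larvae with those, so a p given for chac1 there is not an independent test. The others were added for their place in the same pathway, with earlier results of these data known.

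Levels are in CPM, read counts scaled to a common library size with TMM factors. The 2 stress comparisons are stressed against basal larvae within an archetype, and the 2 archetype comparisons are susceptible against resilient larvae before and after stress. They share groups, so they are not independent of each other. A gene was called at an adjusted p below 0.05 from edgeR's quasi-likelihood test with Benjamini-Hochberg adjustment over all 22038 genes. Adjusted p below is from that test unless another source is named. "Rose" and "fell" are used only of called genes. Levels of different genes are not compared, since the table gives no gene lengths.

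In resilient larvae, ddit3 rose after stress by 0.58 on the log2 scale and chac1 averaged 1.55 times its basal level, while asns and ddit4 averaged less than in basal larvae and were not called. In susceptible larvae no member was called, and chac1 averaged 0.759 times its basal level. The archetypes had nearly the same mean chac1 before stress, 471 ± 112 CPM (SD, n = 4) in resilient and 473 ± 46 CPM (n = 4) in susceptible larvae. After stress they averaged 728 ± 166 CPM (n = 5) and 359 ± 78.7 CPM (n = 5). For stress in resilient larvae 5 fitted log2 fold changes were positive and 3 negative, with a median of 0.22 beside 0.00406 over all genes. None of the negative ones was called, and the count and median include chac1. Whether the members share a direction is therefore not concluded from these signs.

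**Figure D1:**
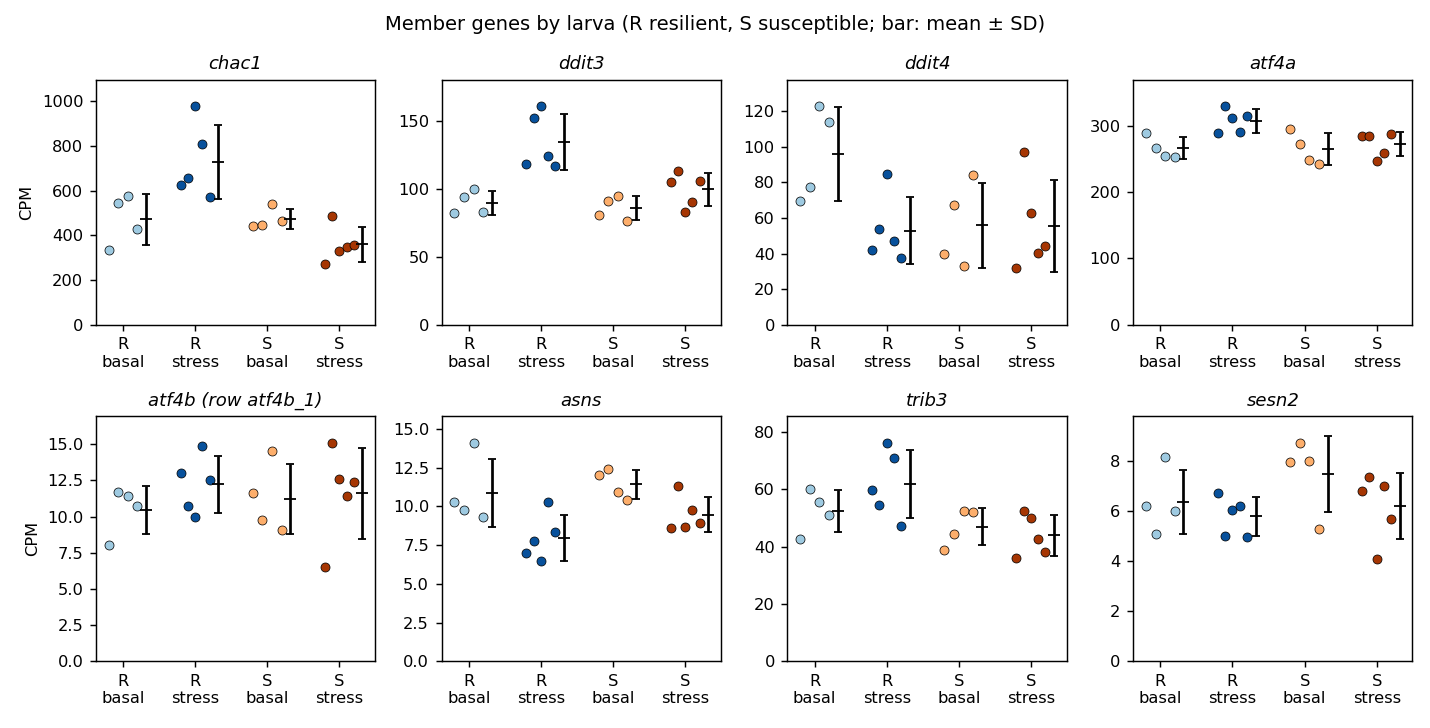
Levels of the 8 genes in CPM (vertical axes from 0) in each larva, with the mean and SD of each group beside its points; R is resilient and S susceptible. The resilient stressed larvae lie between 571 and 979 CPM for chac1 and the susceptible stressed larvae between 272 and 486 CPM, while atf4a stays between 242 and 330 CPM in all larvae.

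The regulators come first. atf4a, which encodes an Atf4 copy, stood at 289, 267, 255 and 253 CPM in resilient basal larvae and at 289, 330, 312, 290 and 315 CPM in resilient stressed larvae. The lowest stressed larva equalled the highest basal one at this precision, and the difference of 0.20 on the log2 scale (SE 0.07) was not called (adjusted p = 0.104). Susceptible basal larvae had 296, 272, 249 and 242 CPM and susceptible stressed larvae 284, 285, 247, 259 and 288 CPM, which overlap. The susceptible stress difference was 0.04 (SE 0.07, adjusted p = 0.958). After stress every susceptible larva was below every resilient one, though by a margin of only 288 against 289 CPM, with a log2 fold change of -0.17 (SE 0.07, adjusted p = 0.168).

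The second Atf4 copy, atf4b, ran from 8.04 to 11.7 CPM before and 10 to 14.9 CPM after stress in resilient larvae. In susceptible larvae it ran from 9.09 to 14.5 CPM before and 6.50 to 15.1 CPM after stress. All 4 groups overlapped, and its log2 fold changes lay between -0.08 and 0.23 in the 4 comparisons, with SEs of 0.18 to 0.21 and none called. Reads of the related copies may have been divided between them in a way the sources do not record, so the split is uncertain.

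ddit3, the gene of the transcription factor Chop that pairs with C/EBP proteins, was at 82.3, 93.9, 100 and 82.9 CPM in resilient basal larvae. In resilient stressed larvae it was at 118, 152, 161, 124 and 117 CPM, so that every stressed larva exceeded every basal one. The log2 fold change was 0.58 (SE 0.11) with adjusted p = 0.00855, and the authors' deposited table gives the same size with an adjusted p of 0.000173. The call held with any 1 larva left out (adjusted p 0.00545 to 0.0394). It ended without resilient basal 1 and 3 (0.61, adjusted p = 0.105) and without resilient stressed 2 and 3 (0.42, adjusted p = 0.0971). Far fewer of all genes were called in both of those fits, so the loss is not particular to ddit3.

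In susceptible larvae ddit3 stood at 80.6, 91.3, 94.8 and 76.2 CPM before and at 105, 113, 83.2, 90.5 and 106 CPM after stress. Of the 5 stressed larvae, larvae 1, 2 and 5 were above all basal ones and larvae 3 and 4 were within the basal range. The log2 fold change was 0.22 (SE 0.11, adjusted p = 0.721). Against resilient stressed larvae, susceptible stressed larvae were lower by a log2 fold change of -0.43 (SE 0.11, adjusted p = 0.0316), with no overlap. That call ended when resilient stressed 2 or 3 or susceptible stressed 3 or 4 was left out (adjusted p = 0.0939, 0.101, 0.0722 and 0.0871). It also ended without resilient stressed 2 and 3 together (-0.27, adjusted p = 0.342), in a fit of these groups alone (adjusted p = 0.0609) and with a replicate block by bracket number (adjusted p = 0.0654). The difference of the stress responses of ddit3 was -0.36 (SE 0.16) and was not called (adjusted p = 0.34).

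trib3 encodes a pseudokinase that is induced by Atf4 and Chop and in mammals restrains both Akt and Atf4. It was at 42.8, 60.3, 55.5 and 51.2 CPM in resilient basal and 59.7, 54.6, 76.3, 71.0 and 47.2 CPM in resilient stressed larvae. Resilient stressed 3 and 4 were above the basal range and the other stressed larvae were within it (0.24, SE 0.15, adjusted p = 0.377). Susceptible larvae had 39.0, 44.5, 52.3 and 52.0 CPM before and 36.2, 52.5, 50.1, 42.6 and 38.3 CPM after stress, nearly the same range. The log2 fold change between susceptible and resilient stressed larvae was -0.49 (SE 0.14, adjusted p = 0.054). trib3 was called there by DESeq2 (adjusted p = 0.0154), by limma voom (adjusted p = 0.0325), with a replicate block by title number (adjusted p = 0.0231) and in the authors' deposited table (adjusted p of 0.02).

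chac1, the gene of the enzyme that splits glutathione into 5-oxoproline and cysteinylglycine, is a target of Atf4 in mammals. Its resilient basal larvae had 333, 545, 578 and 428 CPM and its resilient stressed larvae 627, 656, 979, 808 and 571 CPM. Resilient stressed 5, at 571 CPM, lay just below resilient basal 3, at 578 CPM, and the other 4 stressed larvae were above all basal ones. The fitted log2 fold change was 0.63 (SE 0.19).

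Susceptible basal larvae held 443, 447, 541 and 463 CPM of chac1 and susceptible stressed larvae 272, 486, 330, 350 and 359 CPM. Larva 2 was inside the basal range and the other 4 stressed larvae were below it. The log2 fold change was -0.40 (SE 0.18, adjusted p = 0.651), and -0.53 (SE 0.18, adjusted p = 0.522) without susceptible stressed 2. Before stress the archetypes differed by 0.01 (SE 0.19, adjusted p = 1.0). After stress the fitted difference was -1.02 (SE 0.17), and the difference of the stress responses was -1.03 (SE 0.26). With any 1 larva left out that difference after stress stayed between -1.16 and -0.89.

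asns encodes asparagine synthetase, the enzyme of asparagine supply and a textbook Atf4 target. It stood at 10.3, 9.74, 14.1 and 9.29 CPM in resilient basal and 6.97, 7.74, 6.47, 10.3 and 8.34 CPM in resilient stressed larvae. Only resilient stressed 4 reached the basal range, and the log2 fold change of -0.44 (SE 0.14) was not called (adjusted p = 0.0758). Without resilient stressed 4 it was -0.56 and called (adjusted p = 0.0242). In susceptible larvae the values were 12.0, 12.4, 10.9 and 10.4 CPM before and 8.59, 11.3, 8.68, 9.78 and 8.94 CPM after stress (-0.27, SE 0.14, adjusted p = 0.717). The fitted sign of asns was thus opposite to that of chac1 in resilient larvae and the same in susceptible ones.

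ddit4 and sesn2 encode inhibitors of mTORC1, the kinase that promotes growth and translation. ddit4 had 69.3, 77.5, 123 and 114 CPM in resilient basal larvae and 42.1, 53.7, 84.5, 46.8 and 37.6 CPM in resilient stressed larvae. Of the stressed larvae, larva 3 alone was within the basal range (-0.86, SE 0.35, adjusted p = 0.168). Susceptible larvae ranged from 32.8 to 84.1 CPM before and from 32 to 97 CPM after stress, with a log2 fold change of -0.02 (SE 0.35, adjusted p = 0.998). Its SD was between 27.8% and 46.8% of the mean in the 4 groups, against 5.68% to 9.22% for atf4a. Before stress the fitted ddit4 level of susceptible larvae was 0.585 times that of resilient larvae (log2 fold change -0.77, SE 0.37, adjusted p = 0.841).

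sesn2 ran from 5.09 to 8.15 CPM before and 4.95 to 6.74 CPM after stress in resilient larvae, and from 5.29 to 8.73 CPM and 4.10 to 7.35 CPM in susceptible larvae. The groups overlapped, and the log2 fold changes ran from -0.26 to 0.23 in the 4 comparisons, with SEs of 0.17 to 0.19 and none called.

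Counts of calls are given for the 7 members other than chac1 wherever its values were taken to have chosen it. For stress in resilient larvae 1 of the 7, ddit3, was called higher, where 2.76% of all genes tested were, and 0 lower, where 3.59% were. There 4 of the 7 had an unadjusted p below 0.05 in edgeR, beside 21.6% of all genes, and DESeq2 and limma voom called 1 each. No share of all genes is given for those tools there. Every stressed larva exceeded every basal one for 1 of the 7, ddit3, beside 4.11% of all genes, and 0 showed the opposite, beside 4.36%. After stress 1 of the 7, ddit3, was called lower in the susceptible archetype and 0 higher, beside 1.77% of all genes in each direction. There 3 of the 7 had an unadjusted p below 0.05, beside 19.9% of all genes, and DESeq2 and limma voom called 2 each, ddit3 and trib3. DESeq2 called 1562 and limma voom 1551 of all 22038 genes there, beside 782 by edgeR. Among the 7, all susceptible larvae were below all resilient ones for ddit3 and, at 288 against 289 CPM, for atf4a, beside 2.52% of all genes. They were also below them for chac1, whose values there were taken to have chosen it. They were above them for 0, beside 2.46%. Since the members were chosen with results known, nothing is read from the counts.

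For stress in susceptible larvae edgeR, DESeq2 and limma voom called 0 of the 8, and edgeR called 0% of all genes. In edgeR 0 of the 7 members other than chac1 had an unadjusted p below 0.05, beside 7.45% of all genes. chac1 did, but its susceptible stressed values were among those taken to have chosen it. No member separated the groups upward or downward, beside 1.3% and 1.43% of all genes. Before stress the 3 tools also called 0 members, and edgeR 0% of all genes. In edgeR 0 members had an unadjusted p below 0.05, beside 5.95%, and no member separated the groups, beside 1.63% upward and 1.66% downward. For the difference of responses edgeR, DESeq2 and limma voom called 0 of the 7 members other than chac1, beside, in edgeR, 0.141% of all genes, of which 0.0681% were higher and 0.0726% lower. There 1 of the 7, ddit3, had an unadjusted p below 0.05 in edgeR, beside 13.1% of all genes.

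**Figure D2:**
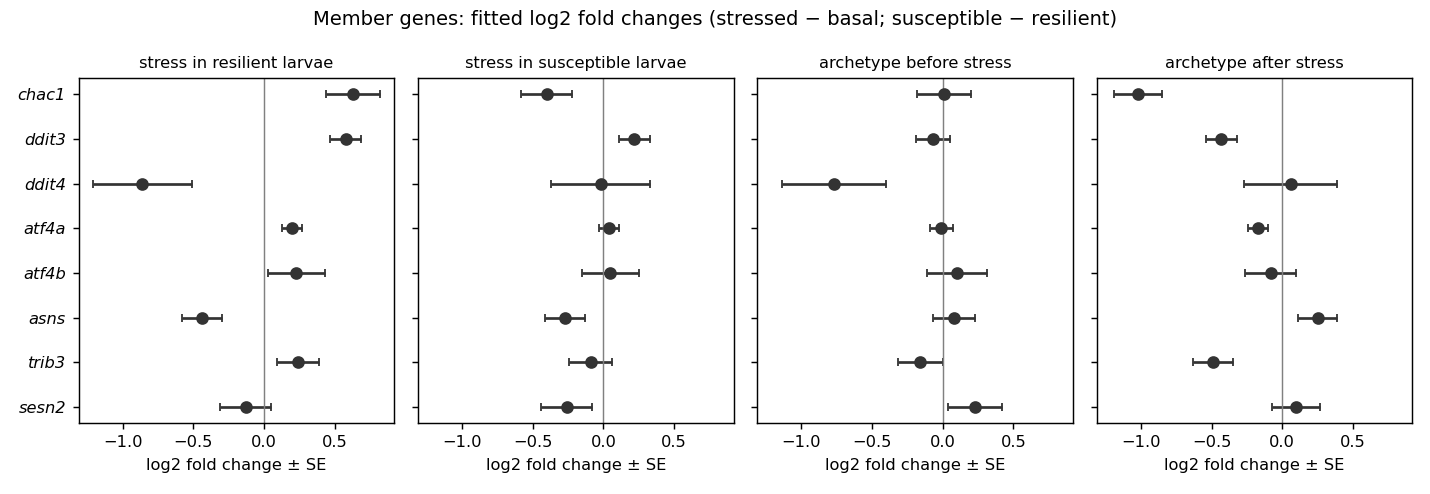
Fitted log2 fold changes of the 8 genes with their SEs in the stress comparison of each archetype (stressed minus basal) and the archetype comparison of each state (susceptible minus resilient). chac1 lies at 0.63 and -0.40 in the stress comparisons and at 0.01 and -1.02 in the archetype comparisons, and ddit4 has the widest errors.

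Larvae of 1 group also differed among themselves. Susceptible stressed 2 was the highest of its 5 for 7 of the 8 members, all but atf4a; of all genes tested it was the highest for 22.8%. Resilient basal 3 was the highest of its 4 for 5 members (27.7% of all genes), and resilient stressed 3 the highest of its 5 for chac1, ddit3, ddit4 and trib3 (19.2% of all genes). Susceptible stressed 2 was also the most deeply sequenced larva, with 23801175 counts; the libraries ran from 8452595 upward. The part of depth in this was not tested.

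Whether members varied together was measured on log2 CPM after removing group means, over 18 larvae. In each larva both genes of a pair come from the same library and so share its depth. Of 28 pairs, 21 had a positive Pearson's r, and 1 pair, chac1 with trib3, passed the permutation test within groups after Benjamini-Hochberg adjustment over the 28. For it r was 0.82 (permutation p = 0.00011, adjusted p = 0.00308) and Spearman's rho was 0.78 (permutation p = 0.00085, adjusted p = 0.0238). Without the 2 larvae farthest from the median chac1 deviation, resilient stressed 3 and susceptible stressed 2, r was 0.76. chac1 with ddit3 had r = 0.59 and rho = 0.56 (two-sided permutation p = 0.0233 and 0.0357, adjusted p = 0.131 and 0.147), and r was 0.40 without those larvae. chac1 with atf4a had r = -0.22 and rho = -0.17 (permutation p = 0.393 and 0.496, adjusted p = 0.647 and 0.791). atf4a with trib3 was the most negative pair, at r = -0.58 and rho = -0.53 (permutation p = 0.0201 and 0.0338, adjusted p = 0.131 and 0.147).

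**Figure D3:**
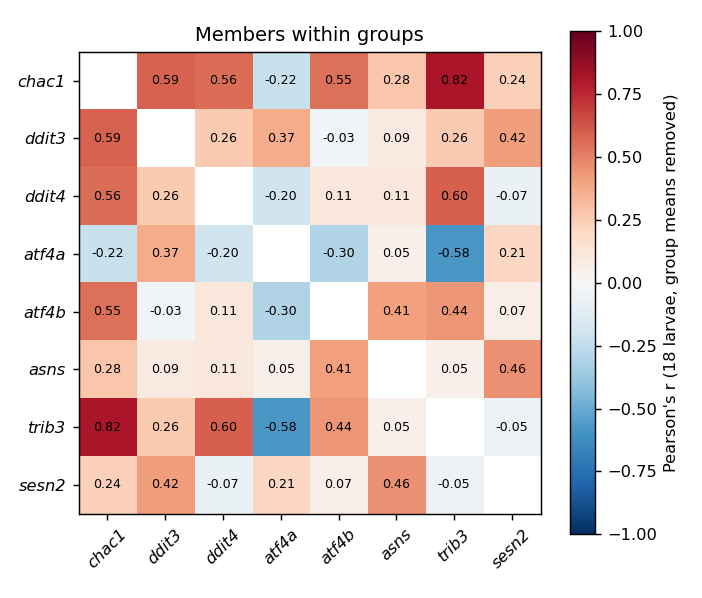
Pearson's r between members over 18 larvae, computed on log2 CPM after removing group means; red is positive and blue negative. chac1 with trib3 has the highest value, 0.82, and atf4a with trib3 the lowest, -0.58.

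Outside the group, the genes whose log2 CPM over the 18 larvae most resembled chac1 were sought among 14524 named genes with a mean of at least 1 CPM. These correlations keep the group means, share the larvae's libraries and are a description without a test. The highest r was 0.97 for hbp1, which encodes an HMG-box transcriptional repressor. Next came adipor2, an adiponectin receptor gene (0.95), foxk1, a forkhead factor gene (0.95), slc1a5, a neutral amino acid transporter gene (0.94), eif4ebp3l, which encodes a binding protein that blocks the cap-binding factor eIF4E (0.94), the transporter gene slc16a12b (0.92), zfand5b (0.92) and the mitochondrial carrier gene slc25a43 (0.92). With group means removed their r with chac1 was 0.82 to 0.96. The lowest values belonged to usp1, e2f3 and rbbp8 (-0.88 each) and dtl (-0.86), which encode a deubiquitinase, a cell cycle transcription factor, a DNA end-resection factor and a replication-linked ubiquitin ligase adaptor. Among the members trib3 ranked 18 of the 14524 at r = 0.87, ddit3 ranked 310 at 0.69, atf4a 2291 at 0.39 and asns 10321 at -0.25. ddit4 ranked 4866 at 0.19 and sesn2 7314 at 0.01. atf4b had r = 0.44 and no rank, since numbered rows were not among the named genes.

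hbp1 averaged 73.0 ± 14.7 CPM (SD, n = 4) before and 106 ± 19.2 CPM (n = 5) after stress in resilient larvae, and 74.9 ± 6.47 CPM (n = 4) and 65.5 ± 10.8 CPM (n = 5) in susceptible larvae. Its highest larva was resilient stressed 3, at 135 CPM, and its lowest were susceptible stressed 1, at 53.0 CPM, and resilient basal 1, at 53.3 CPM. The first 2 were also the extremes of chac1, at 979 and 272 CPM, while resilient basal 1 had 333 CPM, just above the 330 CPM of susceptible stressed 3. dtl, at the other end, had 1.73 CPM in resilient stressed 3, its lowest value, and 6.58 CPM in resilient basal 1, its highest.

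**Figure D4:**
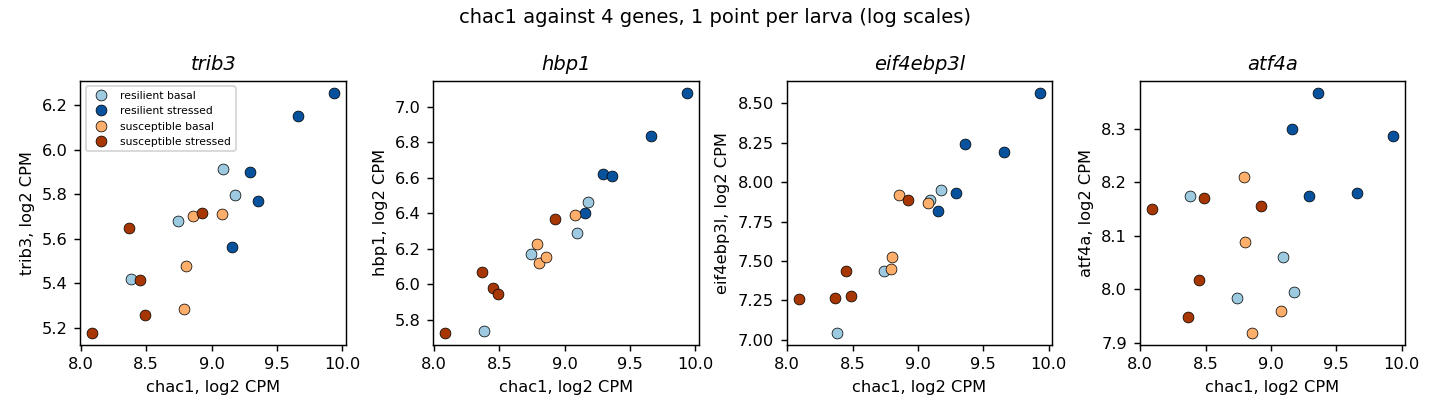
log2 CPM of trib3, hbp1, eif4ebp3l and atf4a against log2 CPM of chac1, with 1 point for each of the 18 larvae, coloured by group (both axes are log scales). r with chac1 is 0.87, 0.97, 0.94 and 0.39 in that order, and resilient stressed 3 is the highest point of the first 3 panels.

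The wider pathway was read from 9 lists, of which 8 hold genes of the integrated stress response and its outputs and 1 the other arms of the unfolded protein response. Of 164 entries 148 matched a row and 143 were tested. The lists were chosen with earlier results of these data known, so their counts are a description and not a test. In the 8 lists, 121 genes were tested. For stress in resilient larvae 5 of them rose and 2 fell, 5.79% beside 6.35% of all genes, with a median of 0.05. There 34 had an unadjusted p below 0.05 in edgeR, beside 21.6% of all genes. After stress 0 were higher and 9 lower in susceptible than in resilient larvae, with a median of -0.09. That is 7.44% beside 3.55% of all genes, of which 1.77% were lower. At an unadjusted p below 0.05 in edgeR there were 46, beside 19.9% of all genes. The 9 became 2 without resilient stressed 2, resilient stressed 3 or susceptible stressed 4, 4 without susceptible stressed 3 or 5, 15 without resilient stressed 5, where 2 were higher, and 1 without resilient stressed 2 and 3. The 5 that rose in resilient larvae became 12 without resilient stressed 5, 1 without resilient basal 1 and 3 and 0 without resilient stressed 2 and 3. Calls over all genes also moved in most of these fits, and were far fewer without either pair of larvae. Where calls over all genes moved, the changes are therefore not particular to the lists. The change from 5 to 12 without resilient stressed 5 is not covered by this. For stress in resilient larvae, calls over all genes did not move to that extent in that fit. Whether that change is particular to the lists was not tested. For stress in susceptible larvae edgeR, DESeq2 and limma voom each called 0 of them, with 13 at an unadjusted p below 0.05 in edgeR, beside 7.45% of all genes. Before stress the 3 tools again called 0, with 5 at an unadjusted p below 0.05, beside 5.95% of all genes. For the difference of responses edgeR called 0, with 24 at an unadjusted p below 0.05, beside 13.1% of all genes. There DESeq2 called 2 and limma voom 1. DESeq2 and limma voom also called more genes than edgeR elsewhere, 12 and 13 for stress in resilient larvae and 19 each for the archetypes after stress. Of all 22038 genes DESeq2 and limma voom called 1562 and 1551 for the archetypes after stress, and 407 and 76 for the difference of responses. Their share of all genes for stress in resilient larvae is not given.

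Of 16 tested genes of eIF2 and its kinases, 1 rose in resilient larvae, beside 2.76% of all genes. It was ppp1r15a, whose product brings a phosphatase to eIF2. Its resilient basal larvae had 61.7, 66.6, 68.1 and 56.5 CPM and its resilient stressed larvae 83.6, 115, 103, 77.6 and 83.0 CPM, with no overlap (0.55, SE 0.12, adjusted p = 0.0123). Susceptible basal larvae had 58.9 to 65.9 CPM and susceptible stressed larvae 59.1 to 88.1 CPM (0.22, SE 0.12, adjusted p = 0.715). The kinase gene eif2ak4, whose product Gcn2 senses uncharged tRNA, was called lower after stress in the susceptible archetype (-0.42, SE 0.10, adjusted p = 0.0335). Its means were 24.7 ± 2.77 and 33.0 ± 5.6 CPM (n = 5 each), and the call ended without resilient stressed 2 or 3 or susceptible stressed 1, 3 or 4. eif2ak3, whose product Perk senses misfolded protein in the endoplasmic reticulum, had a log2 fold change of -0.27 (SE 0.09, adjusted p = 0.0772) in resilient larvae.

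Among 12 tested partner factors, cebpg rose in resilient larvae (0.34, SE 0.07, adjusted p = 0.011) and was lower in susceptible than resilient stressed larvae (-0.27, SE 0.07, adjusted p = 0.0316). It encodes a C/EBP protein that forms dimers with Atf4. Its resilient larvae had 71.2 to 83.3 CPM before and 90.3 to 110 CPM after stress, without overlap; susceptible larvae had 82.2 to 89.5 CPM before and 76.5 to 90.5 CPM after. The first call ended without resilient basal 1 (adjusted p = 0.0515), and the second ended without resilient stressed 2 or 3 or susceptible stressed 3, 4 or 5. atf3, an Atf4-induced repressor gene, had log2 fold changes of -0.12 (SE 0.20, adjusted p = 0.801) in resilient and 0.49 (SE 0.20, adjusted p = 0.583) in susceptible larvae.

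Of 14 tested amino acid transporter genes, 1 rose in resilient larvae, beside 2.76% of all genes. After stress 3 were lower in the susceptible archetype, beside 1.77% of all genes. slc7a8a, a carrier gene for neutral amino acids, was at 259, 324, 315 and 342 CPM in resilient basal and 445, 524, 574, 488 and 367 CPM in resilient stressed larvae. These did not overlap (0.63, SE 0.11, adjusted p = 0.00428), and the call held with any 1 larva left out. It ended without resilient basal 1 and 3 (0.54, adjusted p = 0.116) and without resilient stressed 2 and 3 (0.49, adjusted p = 0.0639), fits in which far fewer of all genes were called. Susceptible stressed larvae were at 274 to 306 CPM, below all resilient stressed larvae (-0.73, SE 0.10, adjusted p = 0.00324).

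slc3a2b, the gene of the heavy chain that several of these carriers need, was at 195, 252, 303, 204 and 193 CPM in resilient stressed and 126, 117, 134, 129 and 118 CPM in susceptible stressed larvae. No larva overlapped (-0.88, SE 0.15, adjusted p = 0.00798). For slc1a5 the log2 fold change after stress was -0.91 (SE 0.21, adjusted p = 0.0244), with stressed means of 57.1 ± 15.3 CPM for the resilient and 30.4 ± 7.13 CPM for the susceptible archetype (n = 5 each). Its call ended without resilient stressed 2 or 3 or susceptible stressed 3, 4 or 5. slc7a11, the cystine carrier gene that supplies glutathione synthesis, had -0.07 (SE 0.27, adjusted p = 0.916) for stress in resilient larvae.

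Of 20 tested enzymes of amino acid and one-carbon supply, 1 fell in resilient larvae, beside 3.59% of all genes. It was aldh18a1 of proline synthesis (-0.27, SE 0.07, adjusted p = 0.0379). After stress 1 was lower in the susceptible archetype, beside 1.77% of all genes. It was pycr1a of the same route (-0.57, SE 0.15, adjusted p = 0.0471). Stressed pycr1a means were 3.64 ± 0.554 CPM for resilient and 2.46 ± 0.449 CPM for susceptible animals. The call of aldh18a1 held in 11 of 18 fits that left out 1 larva, and that of pycr1a in 6 of 18. Of 18 tested aminoacyl-tRNA synthetase genes, which charge tRNA with amino acids, edgeR called 0 in each of the 5 comparisons. For stress in the resilient archetype 4 had an unadjusted p below 0.05, beside 21.6% of all genes, and DESeq2 and limma voom called 2 each. No share of all genes is given for those tools there. The smallest p for stress in resilient larvae belonged to wars (-0.36, SE 0.11, adjusted p = 0.0561) and rars. Their means went from 8.63 ± 0.779 to 6.72 ± 0.929 CPM and from 9.76 ± 2.21 to 7.33 ± 0.669 CPM (n = 4 and 5).

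Of 12 tested brakes on growth and translation, akt1s1 rose in resilient larvae (0.50, SE 0.10, adjusted p = 0.00942). It encodes an mTORC1 inhibitor that is relieved by phosphorylation. Its resilient stressed larvae had 372, 397, 350, 259 and 319 CPM and its basal larvae 216, 249, 223 and 268 CPM, so only larva 4 was within the basal range. After stress akt1s1 (-0.41, SE 0.09, adjusted p = 0.0259) and eif4ebp3l (-0.73, SE 0.18, adjusted p = 0.0379) were lower in susceptible than in resilient larvae. Both calls ended without resilient stressed 2 or 3 or susceptible stressed 4. That of akt1s1 also ended without resilient stressed 1 or susceptible stressed 2, and that of eif4ebp3l without resilient stressed 4 or susceptible stressed 1, 3 or 5.

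In the gamma-glutamyl cycle, which makes and breaks down glutathione and in which Chac1 acts, edgeR called 0 of 13 tested genes in the 5 comparisons. For stress in the resilient archetype 5 had an unadjusted p below 0.05, beside 21.6% of all genes, and DESeq2 and limma voom called 1 each. No share of all genes is given for those tools there. After stress 8 had such a p, beside 19.9% of all genes, and DESeq2 called 2 and limma voom 1. Of all 22038 genes DESeq2 called 1562 and limma voom 1551 after stress, beside 782 by edgeR. chac2, the related gene of slower enzyme activity, had -0.37 (SE 0.17, adjusted p = 0.224) for stress in resilient larvae. The smallest p there belonged to the peptidase gene cndp2, from 106 ± 11.3 to 86.4 ± 11.7 CPM, and ggt5b, from 8.19 ± 1.43 to 6.16 ± 0.915 CPM (-0.40, SE 0.13, adjusted p = 0.0751).

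Among 16 tested outputs, pmaip1, the gene of the cell death protein Noxa, was at 6.31, 6.89, 13.6 and 9.21 CPM in resilient basal larvae. It was at 17.3, 18.4, 16.9, 24.1 and 18.9 CPM in resilient stressed larvae, all above basal (1.09, SE 0.22, adjusted p = 0.00971). In susceptible larvae it was at 13.7, 6.64, 9.08 and 6.99 CPM before and 12.1, 9.29, 10.5, 12.1 and 11.2 CPM after stress, and the latter were below all resilient stressed larvae (-0.79, SE 0.20, adjusted p = 0.037). mcl1b, the gene of a survival protein that Noxa binds, fell in resilient larvae from 116 ± 15.4 CPM (n = 4) to 87.1 ± 2.19 CPM (n = 5) (-0.41, SE 0.08, adjusted p = 0.00901). The calls of pmaip1 and mcl1b for stress in resilient larvae held with any 1 larva left out, as did those of ppp1r15a and akt1s1. None of the 4 held without resilient stressed 2 and 3 (pmaip1 1.17, adjusted p = 0.0639), and of the 4 only pmaip1 held, at the threshold, without resilient basal 1 and 3. Far fewer of all genes were called in both of those fits. The call of pmaip1 after stress ended without any 1 of resilient stressed 2, 3 and 4 and susceptible stressed 2 to 5.

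The arms of the unfolded protein response that run through Atf6 and Ire1, with their chaperones, were read beside the Perk and Atf4 arm. Of 22 tested genes 12 fell in resilient larvae and 0 rose, beside 3.59% and 2.76% of all genes, with a median of -0.64 and 21 of the 22 log2 fold changes negative. This list too was chosen with earlier results of these data known, and its genes are not independent of each other. These counts are therefore a description and not a test of the list. Fewer fell when 1 larva was left out: 4 without resilient basal 1, 6 without resilient basal 3, where 1 rose, and 8 without resilient stressed 2 or 3. The count was 6 with only the groups compared, 5 with a replicate block by bracket number, and 0 without resilient basal 1 and 3 or without resilient stressed 2 and 3. In each of these fits fewer of all genes were called too, and far fewer without either pair of larvae. The lower counts are therefore not particular to this list. calr3b, a calreticulin gene, was at 139, 62.2, 147 and 90.1 CPM in resilient basal and 41.8, 33.8, 30.4, 49.6 and 51.1 CPM in resilient stressed larvae (-1.40, SE 0.26, adjusted p = 0.00779). pdia4, a disulfide isomerase gene, had -1.16 (SE 0.23, adjusted p = 0.0103), the lectin chaperone gene canx -0.66 (SE 0.11, adjusted p = 0.00314) and the co-chaperone gene dnajc3b -0.79 (SE 0.14, adjusted p = 0.00454). These were the 4 calls that held with any 1 larva left out. In the resilient basal group calr3b and pdia4 were lowest in larva 2, at 62.2 and 53.8 CPM, and highest in larva 3, at 147 and 116 CPM. In susceptible larvae 16 of the 22 were positive, with a median of 0.09. There edgeR, DESeq2 and limma voom called 0, and 0 had an unadjusted p below 0.05 in edgeR, beside 7.45% of all genes. Before stress 19 of the 22 were negative, susceptible minus resilient, with a median of -0.29. The 3 tools again called 0, and 10 had an unadjusted p below 0.05 in edgeR, beside 5.95% of all genes. After stress 18 were positive, with a median of 0.39. DESeq2 called 9 there and limma voom 6, beside 1562 and 1551 of all 22038 genes. edgeR called 1 of the 22 higher in the susceptible archetype, beside 1.77% of all genes. It was the isomerase gene pdia6 (0.80, SE 0.21, adjusted p = 0.0406). That edgeR call held in 8 of 18 fits that left out 1 larva. For the difference of responses 19 were positive, with a median of 0.69. There edgeR called 0, with 12 at an unadjusted p below 0.05, beside 13.1% of all genes, while DESeq2 called 11 and limma voom 1. Of all 22038 genes DESeq2 called 407 and limma voom 76 for this difference, beside 31 by edgeR.

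**Figure D5:**
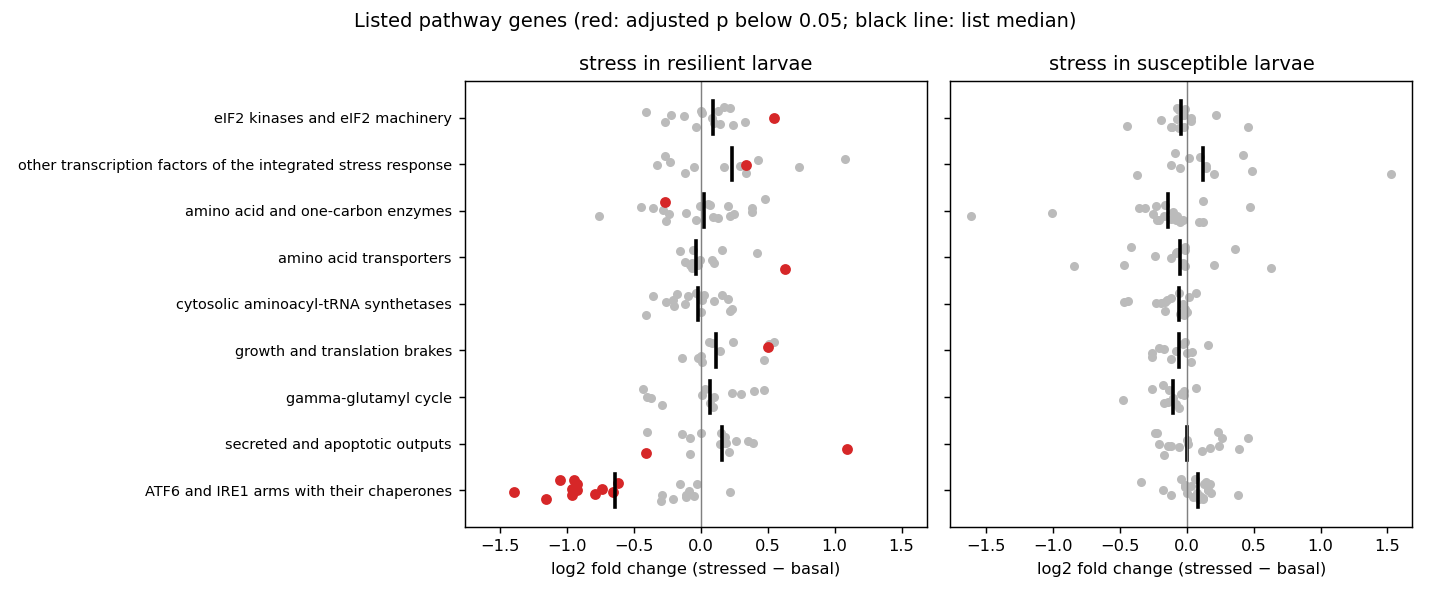
log2 fold changes (stressed minus basal) of the 143 tested pathway genes by list, for resilient larvae on the left and susceptible larvae on the right; red points passed the test and black lines are list medians. In resilient larvae the list of the Atf6 and Ire1 arms has its median at -0.64, while the other list medians lie between -0.04 and 0.23; in susceptible larvae there are no red points.

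Macrophage and hepatocyte markers were on median lower in resilient stressed larvae, the group in which mean chac1 and ddit3 were highest. Whole larvae were sequenced, so fewer cells of a type and less RNA per cell cannot be told apart. The summed CPM of 6 of 7 listed macrophage markers was 148 to 323 in resilient basal, 66.1 to 122 in resilient stressed and 142 to 247 in susceptible stressed larvae. In susceptible basal larvae it was 105 to 228, which overlaps the resilient stressed range. That of 8 of 8 hepatocyte markers was 5770 to 9120, 3820 to 7040, 5930 to 8300 and 6270 to 10600 in the same groups and order. That of 7 of 8 exocrine pancreas markers was 10800 to 14100, 11400 to 17800 and 6460 to 11900, and 2030 to 14900 in susceptible basal larvae. Neuron markers, 8 of 8, were at 2370 to 2550, 2420 to 2610 and 2260 to 2650, and at 2070 to 2490 in susceptible basal larvae. Slow muscle markers, 7 of 7, were at 497 to 604, 572 to 632 and 442 to 572, and at 474 to 572 in susceptible basal larvae. Erythrocyte markers, 5 of 8, were at 529 to 712, 440 to 842 and 622 to 993, and at 754 to 1750 in susceptible basal larvae. Of pancreas, neuron, erythrocyte, fast muscle and epidermis markers 0 were called for stress in resilient larvae or for the archetypes after stress. No matched marker was at 0 in every larva. Among these markers 3 of 6 macrophage and 3 of 8 hepatocyte ones fell in resilient larvae, where 3.59% of all genes did. There 2 of 7 slow muscle markers rose, beside 2.76% of all genes. The list medians of the log2 fold change were -1.27, -0.66 and 0.01 in that order. After stress 2 macrophage markers and 1 hepatocyte marker were called higher, and 3 slow muscle markers and 1 enterocyte marker lower, in the susceptible archetype. Of all genes 1.77% were called in each direction. The list medians there were 1.16, 0.68, 0.02 and -0.36 in that order. The summed CPM of 7 of 8 enterocyte markers was 3200 to 4270 in stressed larvae of the resilient and 2130 to 3790 in those of the susceptible archetype. The part of these tissues in the results was not tested.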

How the data were processed

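The authors deposited raw counts per gene symbol for 18 libraries, per the file headers. The same deposited table holds counts scaled by size factors (signal), regularized log2 values, and the authors' log2 fold changes and adjusted p-values. The submitters' processing notes list cutadapt, STAR, DESeq2 and danRer11; no version, gene counter, annotation or strand setting was found in the sources. Only the raw counts were used, apart from values credited to the authors' deposited table. The 15 rows whose names had become dates (0.0613% to 0.0698% of a library) were left out. Totals ran from 8452595 to 23801175 counts. Each larva is 1 animal, and p-values measure the spread between larvae.

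All libraries entered 1 fit with 4 group means and 5 contrasts (edgeR 4.0.16, R 4.3.3, TMM factors, filterByExpr, robust quasi-likelihood). The SE was obtained by dividing the size of a log2 fold change by the root of its F statistic. log2 CPM used a prior count of 2, and correlations used 100000 two-sided permutations within groups. The fit was also run on simulated counts in which each gene varied independently among larvae. Nothing about the calls above is concluded from that run. Members and lists were chosen with earlier results of these data known. Named genes were the 8 members, called genes of each list (at most 4 per list, direction and comparison), the 2 smallest p of a list with none called, and the 8 genes most and 4 least like chac1; atf3, eif2ak3, slc7a11 and chac2 were added after their values were seen. Alternatives were DESeq2 1.42.0, limma 3.58.1 voom with quality weights, other factors and filters, fits of only the groups compared, replicate blocks and left-out larvae.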

Additional observations from a re-analysis of the deposited data

Results flagged for a closer look

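Values of 39 named genes were looked at in each of the 4 groups, 156 sets of 4 or 5 larvae, for a larva far from the rest of its group. Chance alone flags about 1 in 20 such sets. Of the 156 sets 9 stood out, and none of them belonged to the 8 members.

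Susceptible stressed 2 accounted for 6 of the 9. There eif4ebp3l was at 237 CPM against 153 to 173 CPM in the other 4 larvae, pdia6 at 108 CPM against 54.2 to 63.5 CPM, calr3b at 110 CPM against 57 to 69 CPM and pdia4 at 88.4 CPM against 49.5 to 54.6 CPM. slc25a43 was at 27.3 CPM there against 17.8 to 19.2 CPM, and e2f3 was low, at 13.3 CPM against 18.2 to 19.6 CPM. This larva also had the highest value of its group for 7 of the 8 members. These flags are not independent, since slc25a43, eif4ebp3l and e2f3 were among the genes most or least like chac1.

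The other values that stood apart were pmaip1 in resilient stressed 4, at 24.1 CPM against 16.9 to 18.9 CPM, wars in resilient basal 4, at 7.47 CPM against 8.91 to 9.14 CPM, and ggt5b in susceptible basal 1, at 7.66 CPM against 9.43 to 9.57 CPM.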

How the results depend on the processing

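The 40 member results gave 1192 values under 30 other settings, of which 33 had the other sign and none of the 33 was called. Counts of members called are over all 8 and include chac1, for which they are no test. Genes called for stress in resilient larvae numbered 640 with only the groups compared, 38 without resilient basal 1 and 3, 69 without resilient stressed 2 and 3, and 398 to 1918 with 1 larva left out, moving by over 1.5 times without resilient basal 1, 3 or 4 or resilient stressed 2 or 3. Members called there were 2 with DESeq2, limma voom, upper-quartile factors or the replicate block by title number, 0 without either pair of larvae, and 1 to 2 with 1 larva left out. DESeq2 and limma voom each called 1 of the 7 members other than chac1, so the other one was chac1. For stress in susceptible larvae DESeq2 called 49 genes, the groups compared alone 1, the fit without susceptible basal 1 and 2 called 1, and fits without 1 larva 0 to 13. Before stress DESeq2 called 15 and fits without 1 larva 0 to 1. After stress DESeq2 called 1562, limma voom 1551, the fit without resilient stressed 2 and 3 called 16, and fits without 1 larva 197 to 1730, moving by over 1.5 times without resilient stressed 2, 3 or 5 or susceptible stressed 2, 3, 4 or 5. Members called after stress were 1 with only the groups compared, 0 without resilient stressed 2 and 3, and 1 to 3 with 1 larva left out. For the difference of responses DESeq2 called 407 genes and 1 member, which was chac1, and limma voom called 76 genes. There the fits without resilient basal 1 and 3 and without resilient stressed 2 and 3 called 6 each, and fits without 1 larva 5 to 132. The causes were not tested. A fit of only the groups compared gives no value for that difference.

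Same-numbered larvae of different groups had an r near that of other pairs. By title number the median r was -0.028 over 25 same-numbered pairs (-0.257 to 0.136) and 0.011 over 96 others (-0.183 to 0.209). By bracket number it was 0.005 over 19 pairs (-0.124 to 0.195) and 0.003 over 102 others (-0.257 to 0.209). The numbers were not taken as pairing. With the replicate block by title number 863, 503 and 14 genes were called for stress in resilient larvae, after stress and for the difference, and with the replicate block by bracket number 427, 487 and 8, with 2 before stress and 1 member after stress. ddit4 for stress in susceptible larvae was 0.02 and 0.01 under these blocks, and after stress -0.09 under the second and -0.03 with limma voom.

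Without resilient basal 1 and 3, sesn2 for stress in resilient larvae was 0.08, chac1 and atf4a before stress were -0.03 and 0.03, and the asns difference was -0.03. Without susceptible basal 1 and 2, atf4b for stress in susceptible larvae rounded to 0 with the other sign, asns before stress was -0.03 and the sesn2 difference was 0.05. With 1 larva left out, values ranged from -0.23 to 0.02 for sesn2 under resilient stress, -0.33 to 0.25 for ddit4 and -0.06 to 0.21 for atf4b under susceptible stress. Before stress they ranged from -0.13 to 0.12 for chac1, -0.07 to 0.03 for atf4a and -0.04 to 0.19 for atf4b. After stress they ranged from -0.25 to 0.30 for ddit4 and -0.20 to 0.08 for atf4b. Counts of a few CPM, as for sesn2 and atf4b, limit what size of change can be seen.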
